A study of Saccharomyces cerevisiae with 8 samples.

Results

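The genes described are those of reductive iron uptake in budding yeast, Saccharomyces cerevisiae: the ferroxidase gene FET3, the iron permease gene FTR1, 6 ferric reductase genes (FRE1 to FRE6), and CCC2 and ATX1, which deliver copper to the ferroxidase. They were chosen by name, with earlier results of these data known, and all 10 were found among the 5449 yeast genes measured, each with 1 probe set. Total RNA was measured on 8 arrays. Of these, 4 came from cultures with the vector pRSGPD426 and 4 from cultures with pRS416TEF-Kir2.1-HA, a plasmid for Kir2.1, a mammalian inwardly rectifying potassium channel. Every culture was grown at 26 °C under selection and harvested in mid-exponential phase, and the labels name no strain and no allele besides the plasmids. The plasmids are not the same apart from the channel, and the 4 control arrays alone are marked as a re-analysis, so neither can be told apart from an effect of Kir2.1. The series speaks of biological replicates without saying which cultures were separate, so p-values measure the spread between these arrays. The array reads yeast genes, so the channel's own transcript could not be used to check the labels.

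Yeast takes up iron at high affinity in 2 ways, one for iron bound to siderophores and one that starts by reducing ferric iron at the cell surface. In the reductive route, membrane reductases of the FRE family make ferrous iron, and a complex of the multicopper ferroxidase Fet3 and the permease Ftr1 oxidizes it again and carries it into the cell. Fet3 works only once it is loaded with copper, which the chaperone Atx1 hands to the pump Ccc2 in the late secretory pathway. When iron is scarce, the transcription factor Aft1 activates most of these genes.

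A level is given on a log2 scale, rebuilt from the standardized scores that the authors deposited, with the array's median gene at 0. A level compares arrays for 1 gene and not 1 gene with another. A gene is called within background on an array if it does not exceed the 95th percentile of that array's probe sets for fission yeast genes. By this measure 84.9% to 88.6% of genes were above background per array. Over all genes, vector control replicate 1 was nearest to Kir2.1 replicate 3, and Kir2.1 replicates 2 and 4 were nearest to control arrays, so these 3 arrays did not stand closest to their own group. The results below are therefore also given without arrays that stood apart. In RNA from whole cultures, a higher level in every cell and a higher level in some of the cells cannot be told apart.

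FET3 (YMR058W), the ferroxidase gene, had levels of 3.43, 2.44, 1.70 and 2.30 in vector control replicates 1 to 4 and of 3.67, 2.14, 3.71 and 1.09 in Kir2.1 replicates 1 to 4. Its highest arrays were Kir2.1 replicates 3 and 1 and vector control replicate 1, its lowest was Kir2.1 replicate 4, and the groups overlapped over most of their range. The highest array lay 6.15-fold above the lowest, a log2 range of 2.62.

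FTR1 (YER145C), the permease gene, stood at 2.63, 1.63, 0.88 and 1.37 in the control arrays and at 2.91, 1.39, 2.99 and 0.48 in the Kir2.1 arrays. As in FET3, Kir2.1 replicate 3 was the highest array and Kir2.1 replicate 4 the lowest, and the groups overlapped. After each gene was set to its own mean over the 8 arrays, the profiles of FET3 and FTR1 differed by a root mean square of 0.08 (log2), and no other gene of the array lay nearer to FET3 than FTR1. Both genes also varied among the arrays on which they were lower. Kir2.1 replicate 2 exceeded Kir2.1 replicate 4 by 1.04 for FET3 and by 0.91 for FTR1, and vector control replicate 2 exceeded replicate 3 by 0.74 and by 0.75.

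**Figure D1:**
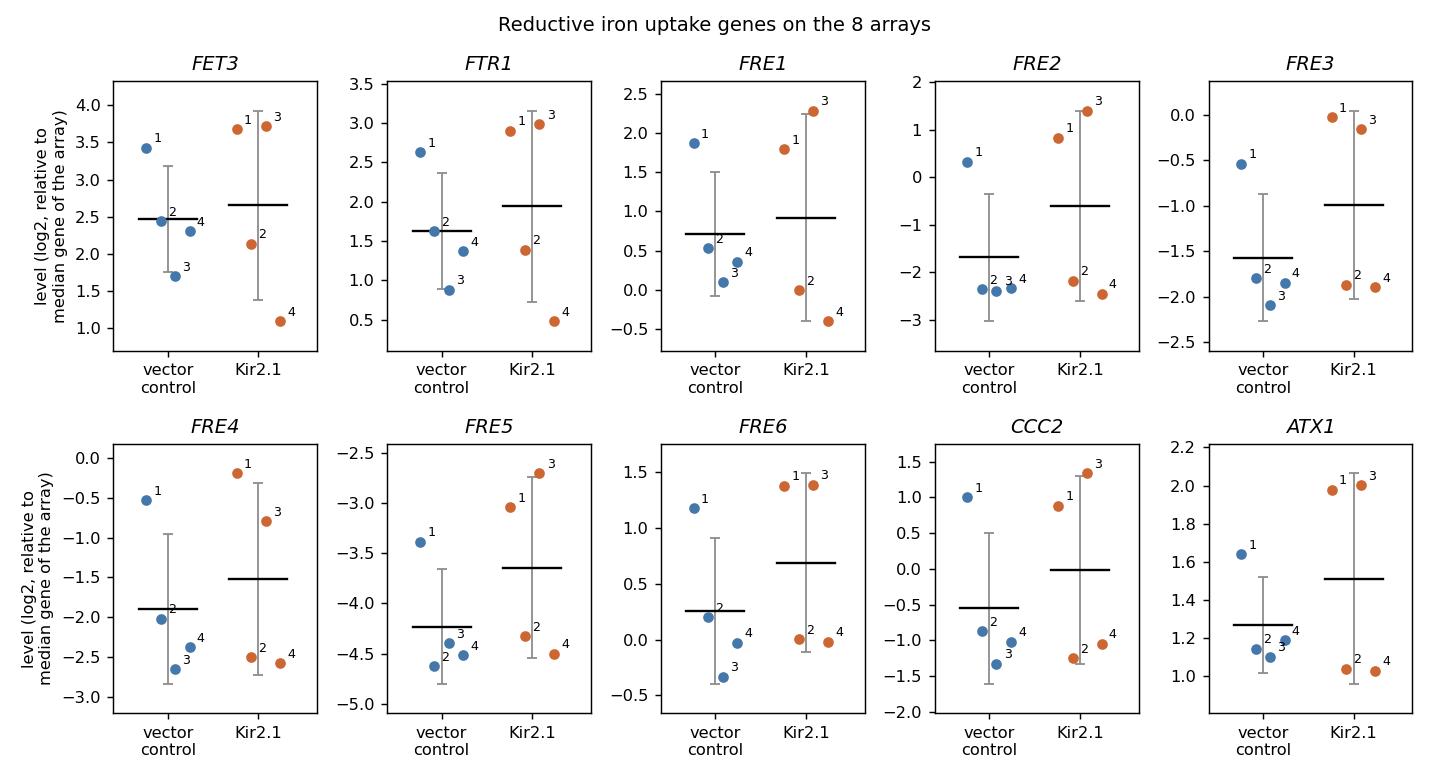
Level of each of the 10 genes on the 8 arrays (log2, with the array's median gene at 0 and a separate vertical scale per gene). Points are arrays with their replicate numbers, black lines are group means and grey bars are ± 1 SD (n = 4 arrays per group). In all 10 genes, Kir2.1 replicates 1 and 3 and vector control replicate 1 are the 3 highest arrays.

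FRE1 (YLR214W) encodes the main cell surface ferric and cupric reductase. Its levels were 1.87, 0.53, 0.09 and 0.36 in the control arrays and 1.80, -0.0040, 2.29 and -0.40 in the Kir2.1 arrays. It was high on the same 3 arrays as FET3, but here vector control replicate 1 exceeded Kir2.1 replicate 1, and the groups overlapped. FRE1 is also known as a target of the copper-sensing factor Mac1. The Mac1 target CTR1, a copper transporter gene, ranged over 0.74 across the 8 arrays against 2.69 for FRE1. Like FRE1, CTR1 was highest in vector control replicate 1 (2.04) and Kir2.1 replicate 3 (2.03). Next came vector control replicate 2 and Kir2.1 replicate 1, both at 1.63. Whether Mac1 has a part in the levels of FRE1 was not tested.

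FRE2 (YKL220C), which encodes a second surface reductase, showed the widest range of the 10 genes. Its levels were 0.32, -2.36, -2.38 and -2.33 in the control arrays and 0.83, -2.18, 1.40 and -2.45 in the Kir2.1 arrays. Kir2.1 replicates 1 and 3 and vector control replicate 1 were above background, by 2.58, 2.95 and 2.17 on the log2 scale, and the other 5 arrays were within it. The log2 range of 3.85 is therefore not well bounded from below, and it ran from 3.57 to 3.94 over the scalings tried. Vector control replicates 2 to 4, all within background, spanned 0.05.

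FRE3 (YOR381W) and FRE4 (YNR060W) encode reductases known to act on iron bound to siderophores. FRE3 stood at -0.54, -1.80, -2.09 and -1.85 in the control arrays and at -0.03, -1.87, -0.16 and -1.90 in the Kir2.1 arrays, and it was above background on 4 of the 8. FRE4 stood at -0.53, -2.02, -2.65 and -2.37 in the control arrays and at -0.19, -2.50, -0.80 and -2.58 in the Kir2.1 arrays, and it was above background on 3 of them. Both genes were highest in Kir2.1 replicate 1, whereas FET3, FTR1, FRE1 and FRE2 were highest in Kir2.1 replicate 3. For FRE4, Kir2.1 replicate 3 lay 0.60 below replicate 1 (-0.60, replicate 3 minus replicate 1). Both genes were within background in Kir2.1 replicates 2 and 4, so no difference between those arrays can be read from them.

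FRE6 (YLL051C), the gene of a vacuolar reductase, had levels of 1.18, 0.20, -0.33 and -0.03 in the control arrays and of 1.38, 0.0042, 1.39 and -0.02 in the Kir2.1 arrays. It was above background on all 8 arrays and was high on the same 3. Among the 10 genes its profile over the 8 arrays lay nearest to that of FRE3, which is within background on 4 arrays, at a root mean square difference of 0.18. FRE5 (YOR384W), a reductase family gene whose role is less clear, was within the background of every array. Its values were -3.39, -4.62, -4.40 and -4.52 in the control arrays and -3.05, -4.33, -2.71 and -4.50 in the Kir2.1 arrays, so its order was the common one. No level or fold is read from these values, although the counts and estimates over all 10 genes below include FRE5.

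**Figure D2:**
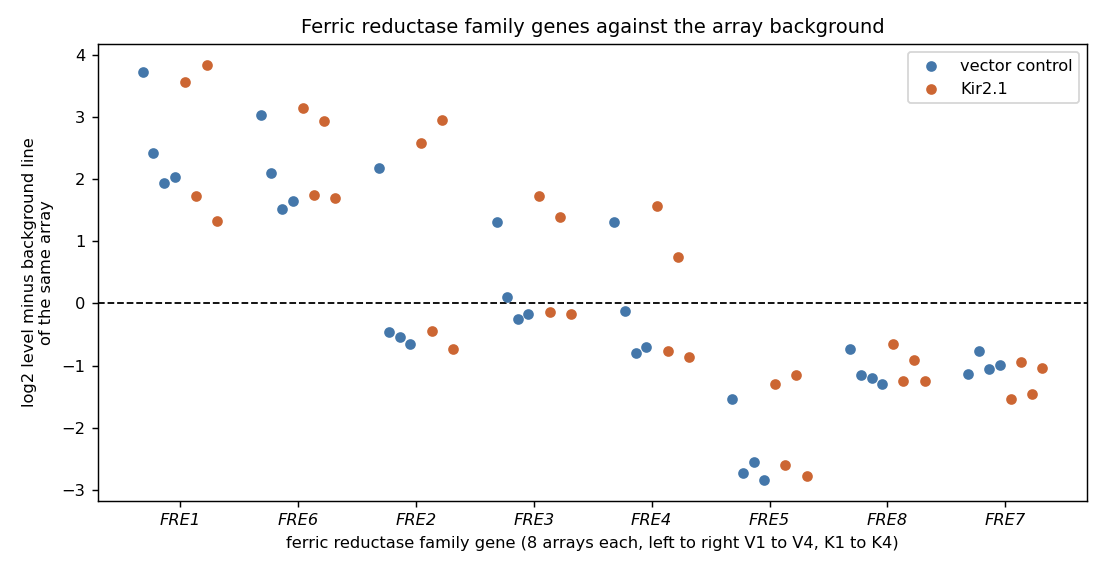
Ferric reductase family genes on the 8 arrays, as log2 level minus the background line of the same array (95th percentile of fission yeast probe sets, dashed at 0). Points are single arrays, in the order of vector control replicates 1 to 4 and Kir2.1 replicates 1 to 4. FRE1 and FRE6 lie above the line on all 8 arrays, FRE2 and FRE4 on 3, FRE3 on 4, and FRE5, FRE8 and FRE7 on 0. Heights are to be compared between arrays of 1 gene, not between genes.

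The copper genes that serve Fet3 followed the same arrays with different amplitudes. CCC2 (YDR270W), the copper pump gene, stood at 1.01, -0.87, -1.33 and -1.02 in the control arrays and at 0.88, -1.25, 1.34 and -1.05 in the Kir2.1 arrays. Vector control replicate 1 exceeded the next control array by 1.88 on the log2 scale. ATX1 (YNL259C), the chaperone gene, stood at 1.64, 1.14, 1.10 and 1.19 in the control arrays and at 1.98, 1.04, 2.0 and 1.03 in the Kir2.1 arrays. Its range of 0.97, or 1.96-fold, was the smallest of the 10. In ATX1 the groups overlapped, as they did in CCC2 and in each of the other 8 genes.

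The comparison of the groups asks whether yeast with the channel expresses these genes differently from yeast with the vector. By limma, 0 of the 10 genes passed at an adjusted p under 0.05 over all genes, with adjusted p from 0.711 to 0.926. Over all 5449 genes 0 passed as well (0%), and 455 (8.35%) had an unadjusted p under 0.05, none of them among the 10. The unmoderated test of the same fit also called 0 genes, and 524 had an unadjusted p under 0.05. The mean of the Kir2.1 arrays was the higher one in all 10 genes, against 58.7% of all genes, and their median difference was 0.40 against 0.03 over all genes. The same arrays were highest in all 10 genes, so their signs are not 10 separate observations. FRE5, within background on every array, is among them.

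The errors were larger than the differences for most of these genes. FET3 averaged 2.47 ± 0.71 (SD, n = 4) in the control arrays and 2.65 ± 1.27 (SD, n = 4) in the Kir2.1 arrays, a difference of 0.19 with a standard error of 0.62 (limma adjusted p = 0.926). Its 95% interval ran from -1.22 to 1.59, so neither a fall to 0.429 nor a rise to 3.02 times the control level was outside it. FTR1 differed by 0.31 (SE 0.60, interval -1.06 to 1.69) and FRE1 by 0.21 (SE 0.65, interval -1.28 to 1.69). FRE2 had the largest estimate, 1.09 (SE 1.01, interval -1.23 to 3.40). Because 5 of its values, from both groups, are within background, its difference may be larger or smaller than shown. FRE3, FRE4 and FRE6 differed by 0.58 (SE 0.53), 0.38 (SE 0.65) and 0.43 (SE 0.44). CCC2 differed by 0.54 (SE 0.71), and ATX1, with the narrowest interval, by 0.24 (SE 0.26, interval -0.35 to 0.84).

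**Figure D3:**
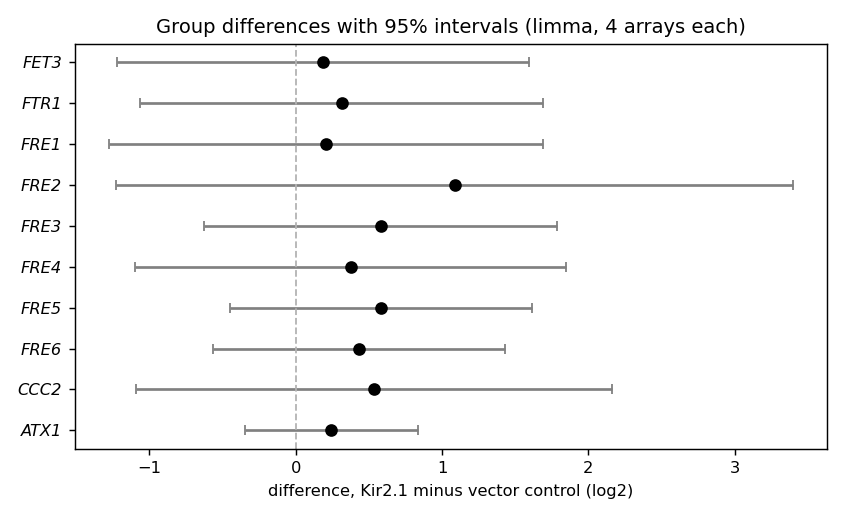
Difference between groups for each gene (log2, Kir2.1 minus vector control) with its 95% interval from limma (4 arrays per group). All 10 estimates lie above 0 and all 10 intervals include 0. FRE5 is within the background of every array.

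The exact permutation test of each gene over the 8 arrays, two-sided, gave unadjusted p from 0.200 to 0.914, where 4 arrays against 4 cannot give less than 0.0286. In 0 of the 10 genes did the groups separate without overlap, against 6.59% of all genes. With Kir2.1 replicates 1 and 3 and vector control replicate 1 all left out, a setting chosen after their values were seen, the Kir2.1 mean was higher in 4 of the 10, and FET3 had a difference of -0.53 (limma adjusted p = 0.673). These were the 3 highest arrays in all 10 genes and 2 of them were Kir2.1 arrays, so leaving them out favours lower differences. On the arrays left, FRE2, FRE4 and FRE5 were within background throughout, and FRE3 except in vector control replicate 2. The signs of these FRE genes are not read. Omission of Kir2.1 replicate 1 left 6 of 10 higher, of Kir2.1 replicate 3 left 7 and of vector control replicate 3 left 9, whereas each of the other 5 single omissions left all 10 higher. With array weights, 9 of the 10 genes passed (1735 of 5449 genes over the table). The weights were estimated from the same values and groups and are low for arrays far from their group mean. These calls are therefore not independent of the grouping. That fit weighted Kir2.1 replicates 2 and 4 at 0.231 and 0.267 and vector control replicate 1 at 0.372, with weights from 0.861 to 4.20 for the other arrays.

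Kir2.1 replicates 1 and 3 and vector control replicate 1 were the 3 highest arrays in 10 of the 10 genes. This count includes FRE5, which was within the background of every array. The same 3 arrays were highest in 16.7% of all genes and in 43.5% of the 375 genes whose range was at least that of ATX1. The count was 10 under each log2 scaling tried and 9 on the deposited scores, where 15.9% of all genes showed it. One of the 3 came from the vector and 2 from Kir2.1, so the pattern crosses the study's groups. Among these arrays Kir2.1 replicate 1 exceeded vector control replicate 1 in 8 of the 10 genes, FRE1 and CCC2 being the exceptions. Within the control group, replicate 3 was the lowest array in all 6 genes that were above background throughout, and the order of the other 4 is not read because they were within background there.

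The spread between arrays of 1 group was large for these genes. The residual standard deviation about the group means was 1.70 for FRE2, 1.20 for CCC2, 1.09 for FRE1, 1.08 for FRE4, 1.03 for FET3 and 1.01 for FTR1, against a median of 0.13 over all genes. Of the 10, 5 were among the 20 genes with the largest residual standard deviation and 9 among the 50 largest. The 9 include FRE5, within background on every array, and FRE2, FRE3 and FRE4, within background on several. FRE2 and FRE4 are also among the 5, and the size of the spread of these FRE genes depends on the chosen zero. ATX1, at 0.43, lay at the 95.8th percentile, with 229 genes above it.

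**Figure D4:**
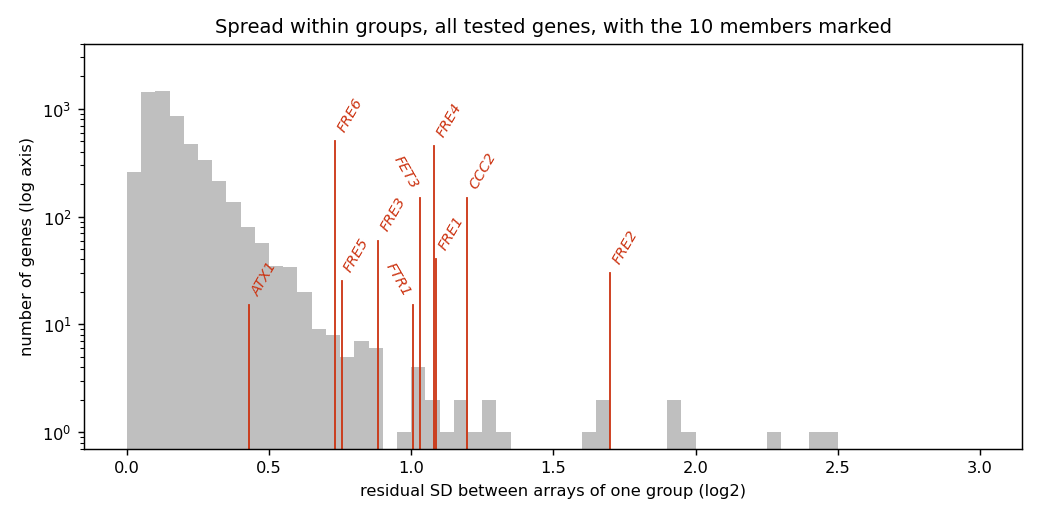
Residual standard deviation between arrays of 1 group (log2) for all 5449 genes, as a histogram with a log axis of gene number. Red lines mark the 10 genes at their value, and line heights are staggered for legibility and have no meaning. ATX1 at 0.43 is the lowest of the 10 and FRE2 at 1.70 the highest. FRE2, FRE3, FRE4 and FRE5 have arrays within background, so the size of their spread depends on the chosen zero.

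Profiles were compared among the 10 by the root mean square difference after centring each gene. Over the 45 pairs it ranged from 0.08 to 1.19 with a median of 0.38. FRE1 stood 0.22 from FTR1, and FRE2 and ATX1 were farthest apart, the genes with the widest and the narrowest range. This measure counts amplitude, so FRE2 stood 0.84 from FET3 although it was high on the same arrays. Of the 10 genes nearest to FET3, 4 were FTR1, FRE1, FRE3 and FRE4. The 6 nearest genes outside the set were HBN1 (0.32), AKR1 (0.33), SMF3 (0.34), VBA3 (0.35), CRR1 (0.35) and LYS9 (0.38), over 8 arrays, with a median of 0.90 over all genes. SMF3 encodes a vacuolar iron transporter, AKR1 a palmitoyltransferase and LYS9 an enzyme of lysine synthesis. VBA3, read from a shared probe set, and CRR1 were within background on all 8 arrays.

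Other genes of iron and copper handling were read from lists. None of their 39 measured members passed over all genes by limma, where the share over the table was 0%, and 1 had an unadjusted p under 0.05. The siderophore transporters and wall mannoproteins, which serve the other uptake route, had a wider median range than the reductive genes, 4.33 against 2.48 on the log2 scale, though single ranges overlapped between the lists. All 7 of them were highest on the same 3 arrays, FIT2 with a range of 5.04, ARN2 of 4.96 and ARN1 of 4.33, and their median difference between groups was 0.80. Among the vacuolar and low-affinity transporters, 5 of 7 were highest on these arrays. SMF3 ranged over 1.56, and FET4, a low-affinity transporter gene, over 1.50. FET5 and FTH1, the vacuolar counterparts of FET3 and FTR1, ranged over 0.70 and 1.09, less than FET3 and FTR1 themselves. CCC1, which moves iron into the vacuole, ran the other way, with -0.12 in vector control replicate 1 and 0.31 and -0.01 in Kir2.1 replicates 1 and 3, below its 0.68 to 1.25 in the other arrays.

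Of the genes for mobilization and mRNA decay, 5 of 6 were measured above background on at least 4 arrays. TIS11, also called CTH2, whose product promotes decay of mRNAs for iron-using proteins, ranged over 4.91, with 3 of the 8 arrays within background, so that this range is not well bounded from below either. Among 7 regulators, AFT1 itself ranged over 1.35, from 0.28 in Kir2.1 replicate 3 to -1.07 in Kir2.1 replicate 4, the same top and bottom arrays as FET3. GRX4, a glutaredoxin gene that restrains Aft1, was lowest on the 3 arrays where FET3 was highest, at -0.02, -0.10 and -0.23, against 1.20 to 1.53 on the others. The list did not share this order: 4 of the 7 regulators, FRA1 and AFT1 among them, were highest on those 3 arrays. BOL2 was also lowest on them, over a range of 0.39, and GRX3, with a range of 0.46, followed neither order. The median difference between groups was 0.03 for the regulators, 0.24 for mobilization and 0.18 for the vacuolar and low-affinity transporters.

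The other reductase family genes had smaller ranges. FRE7 and FRE8 were within background on all 8 arrays, with ranges of 0.63 each, and AIM14 ranged over 0.51. The copper list had a median range of 0.33, below the 0.40 of all genes, and 2 of its 9 measured genes were highest on the 3 arrays. SOD1, the copper-zinc superoxide dismutase gene, ranged over 0.19, and MAC1, the copper regulator gene, over 0.33. CCC2 and ATX1 ranged more widely than any of these 9, of which CTR2, a vacuolar copper transporter gene, was the widest at 0.90.

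**Figure D5:**
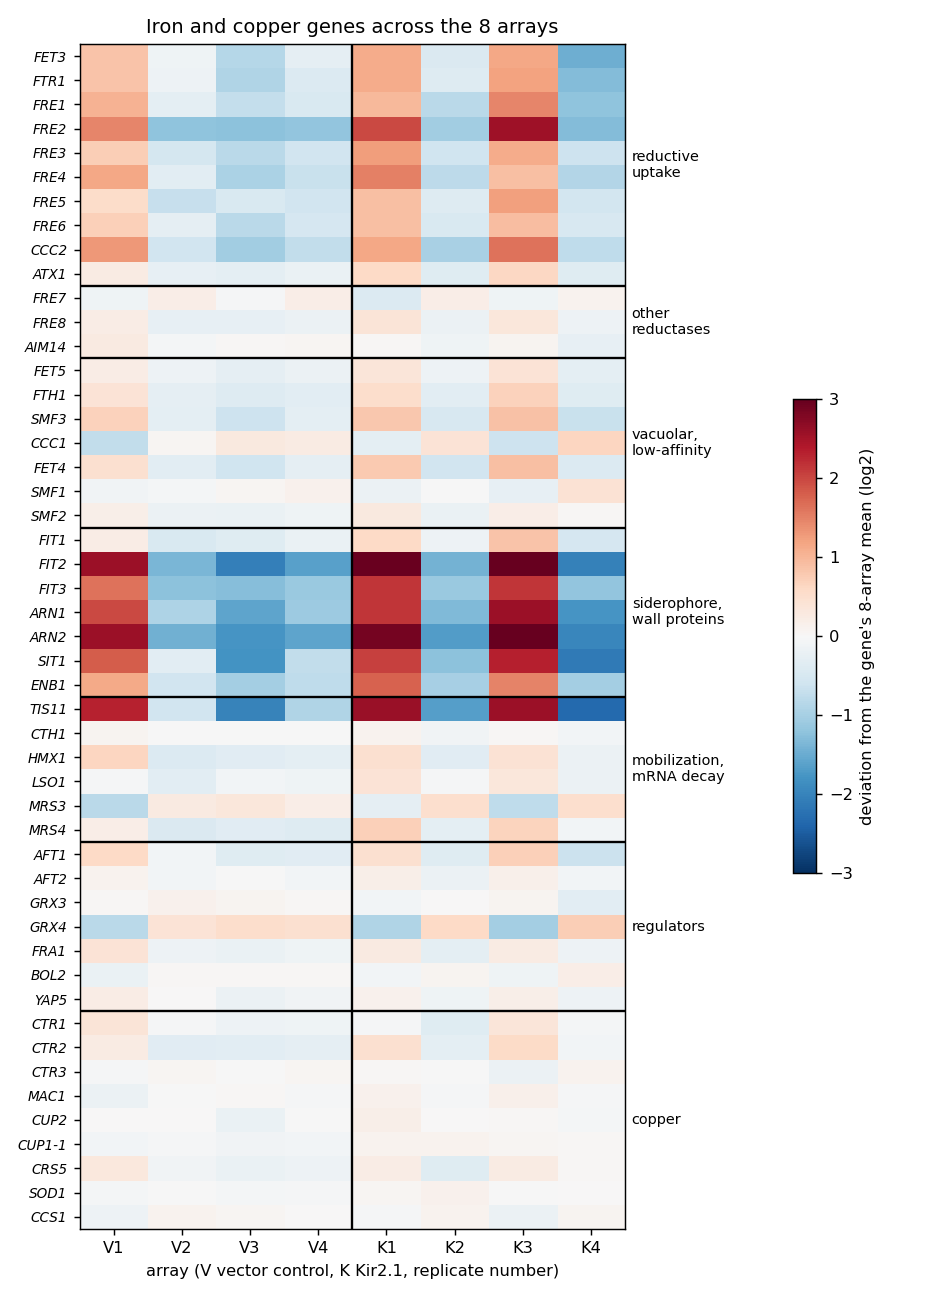
Deviation of each gene from its own mean over the 8 arrays (log2, colour, cut at ± 3) for the 10 genes and 39 companion genes, grouped by list. Columns are vector control replicates 1 to 4 (V) and Kir2.1 replicates 1 to 4 (K). The reductive uptake and siderophore blocks are red in V1, K1 and K3 and blue elsewhere, the copper block is nearly white, and CCC1, MRS3 and GRX4 have the opposite colours.

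Position along the chromosome was read from the gene order of RefSeq assembly R64, after the values were seen. FRE3 and FRE5 lie on either side of FIT2 and FIT3, 2 wall mannoprotein genes of the siderophore list, and all 4 were highest on the same 3 arrays. Outside the lists, 18 next-door genes of the 10 were measured, with a median range of 0.41, close to the 0.40 of all genes, and 3 were highest on those arrays. CRR1, next to FRE1, ranged over 1.60 but was within background. AQY2, an aquaporin gene next to FRE6, ranged over 1.81 and was above background on all 8 arrays.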

How the data were processed

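The 8 arrays are 1-colour Affymetrix arrays hybridised with biotin-labelled cRNA, per the labels' protocols. The deposited values are a standardized score per probe set: over the 10715 probe sets of an array they average 0 with an SD of 1, in the shape of a linear intensity. For software, background correction and summarization, nothing is given in the sources used here. The deposited scores hold no log2 values, so the log2 scale planned for the tests was rebuilt: the zero of each array was set 0.005 array standard deviations below its lowest score, log2 was taken, and each array was centred on the median gene. Centring removed a difference of -0.13 (log2) in the level of the median gene, Kir2.1 minus control.

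The platform annotation gave 1 yeast gene for 5498 probe sets, another entry (taken as fission yeast) for 1746, several genes for 1 and no entry for 3470. The symbols follow RefSeq. The brightest probe set stood for each of the 47 genes with several, which left 5449 genes. The group comparison used limma (version 3.58.1, R 4.3.3; lmFit and eBayes, group as the only term, two-sided, Benjamini-Hochberg over all genes). The fit was tested on simulated data. The simulated noise was independent between genes, and its SD was capped below the residual SD of each of the 10 genes. That test therefore does not speak for genes with their spread. Precision is limited by how many arrays there are, with a standard error of 0.0912 for the median gene. The 10 genes and the lists were chosen with earlier results of these data known. Named are all 10 genes, up to 3 genes per list with the largest spread, and the 6 nearest to FET3. FET5, FTH1, FIT3, SOD1, MAC1, GRX3, BOL2 and the chromosomal neighbours fall outside this rule and were chosen after their values were seen. CUP1-2 was not analysed here, and promoter motifs were not searched because no sequence was used here. Alternatives were the zero, the centring, quantile normalization, a filter on dim genes, no log, array weights, the replicate block, averaged probe sets, the unmoderated test and the omission of arrays.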

Additional observations from a re-analysis of the deposited data

Results flagged for a closer look

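Of 20 sets of 4 arrays (10 genes in each group), 2 held an array far from the others by Dixon's ratio, the gap to the nearest array divided by the range of the group, set against its 95% critical value. Chance flags about 1 in 20 such sets if they are separate, but the 10 sets of a group come from the same 4 arrays. The share over all genes was not counted, so the 2 flagged sets are not read as a result about these genes. Both were vector control replicate 1 as the highest of its group: FRE2 with a ratio of 0.981, at 0.32 against -2.33 for the next array, where the other 3 arrays are within background and so lie close together at the floor, and ATX1 with a ratio of 0.838, at 1.64 against 1.19. Among genes above background on all 8 arrays, CCC2 came near the critical value on the same array, at 0.804. In the Kir2.1 group, where 2 arrays were high and 2 low, no ratio passed, and a ratio of this kind cannot single out an array there.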

How the results depend on the processing

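Over 20 alternatives, 19 of them planned, the count of 0 called members changed with array weights alone (9 called), and the count of 0 called genes changed with array weights (1735) and without a log (1). The 9 members passed there with differences from 0.66 for ATX1 to 2.74 for FRE2. In the omission of each array in turn, 0 genes and 0 members were called. The differences then ran from -0.17 to 0.71 for FET3, -0.036 to 0.80 for FTR1, -0.25 to 0.65 for FRE1 and -0.065 to 0.83 for FRE4, so these 4 changed sign. The other 6 stayed positive but moved by more than 1.5 times: 0.42 to 1.76 for FRE2, 0.26 to 0.92 for FRE3, 0.27 to 0.87 for FRE5, 0.20 to 0.74 for FRE6, 0.084 to 1.06 for CCC2 and 0.080 to 0.40 for ATX1. With the 3 arrays on which these genes were highest left out together, 6 changed sign: FET3 (-0.53), FTR1 (-0.36), FRE1 (-0.53), FRE4 (-0.19), CCC2 (-0.073) and ATX1 (-0.11). FRE4 was within background on all arrays left, so its sign is not read. Since 2 of the 3 arrays were from Kir2.1, this omission favours lower differences, and the cause was not tested. The zero, the centring, quantile normalization and the absence of a log left all signs positive. The dim filter (which kept 7 of the 10) and the unmoderated test do not alter a difference, so they could not change a sign. Averaged probe sets could only shift the centring, because each of the 10 genes has 1 probe set. The replicate block called 0 members and 0 genes, with FRE2 at 1.09 (adjusted p = 0.548). Arrays of equal number were not regularly the most alike: deviations from the group means correlated across genes at 0.81, 0.69, -0.66 and 0.39 for replicates 1 to 4, and 2 of 8 arrays correlated best with their own number. Such correlations cannot settle whether arrays of equal number were handled together. For FRE5, FRE2, FRE3 and FRE4, size depends on the zero and the background. The range of FRE5 ran from 1.27 to 2.25 over the scalings.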
